A study of Mus musculus with 11 samples.

Results

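The granins and the membrane proteins of the secretory granule were followed through islet RNA sequencing as 8 genes: the granins Chga, Chgb, Scg2, Scg3 and Vgf, the receptor-like phosphatase homologues Ptprn and Ptprn2, and the zinc transporter Slc30a8. They were taken by symbol from the 32285 genes of the count table, and all 8 were among the 15093 genes tested. Pancreatic islets of 16-week-old mice fed a high-fat diet for 4 weeks were kept for 24 h with 10 µM azoramide, a small molecule that acts on protein folding in the endoplasmic reticulum, or with its vehicle DMSO. The study had 3 libraries labelled βZKO_Mip with azoramide, 2 labelled βZKO_Mip with DMSO, 3 control libraries with azoramide and 3 control libraries with DMSO, each pooled from at least 3 mice of 1 genotype. The βZKO_Mip mice are described as lacking Zzef1 in β cells, and the controls are their littermates. The labels do not spell out the Cre driver behind "Mip" and do not say whether azoramide and DMSO libraries came from the same mice, so p-values measure the spread between these libraries.

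Dense-core secretory granules store peptide hormones such as insulin and glucagon until a rise in calcium releases them. Granins are acidic, aggregating proteins of the granule lumen that concentrate cargo in the trans-Golgi network and are themselves cut into peptides. The granule membrane carries the phosphatase-like proteins IA-2 and phogrin, which are autoantigens of type 1 diabetes, and in β cells the transporter ZnT8, which loads the zinc that insulin crystallises with. Granins are made in several islet endocrine cell types, whereas Slc30a8 is best known from β cells.

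The members together held 2.17% to 2.57% of the counts of a library, and library totals ran between 16832800 and 19501813 counts. On the first principal component of all tested genes (38.2% of the variance) the azoramide libraries lay on one side and the DMSO libraries on the other. The second component, with 11.8%, had control DMSO library 2 at 35.3 and βZKO_Mip azoramide library 3 at -24.7, the positions farthest from 0 in either direction, and results resting on these libraries are also given without them. The deleted gene did not follow the label in a single direction. Zzef1 had 72.8 ± 4.5 counts-per-million (CPM) in azoramide libraries labelled βZKO_Mip against 66.5 ± 2.0 in control azoramide libraries (SD, n = 3 each). With DMSO it had 81.4 ± 2.9 CPM in libraries labelled βZKO_Mip (SD, n = 2) against 97.2 ± 12.2 in control libraries (SD, n = 3). The adjusted p by edgeR's quasi-likelihood test was 0.968 with azoramide and 0.999 with DMSO, so the genotype is given throughout as the label of a library.

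The promoter windows of the 3 most abundant granin genes hold a full or partial cAMP response element, the site at which CREB binds, and are shown because these genes make up most of the granin counts and Chga fell while Scg2 rose with azoramide. RefSeq promoter entries on build GRCm38.p6 were held for 6 of the 8 members, and Vgf and Slc30a8 are named only. In the 250 bases before the RefSeq start, the full element TGACGTCA, which reads the same on both strands, began at position -72 from the start of Chgb and at -68 from that of Scg2. The Chga window held the half-site TGACGT at position -44, and the windows of Scg3, Ptprn and Ptprn2 held neither form on either strand. Among the 32851 RefSeq windows of this length, 1.55% held the full element and 6.47% held the half-site on either strand, a share that includes every full element. In the 30-base stretches below, capitals mark the element. The first lies at chr12:102554885-102554914 on the plus strand, the second at chr2:132781559-132781588 on the plus strand, and the third at chr1:79440076-79440105 on the minus strand. The GENCODE M21 models of Chgb and Scg2 begin farther upstream than RefSeq's, so the last 2 stretches lie inside them.
Chga: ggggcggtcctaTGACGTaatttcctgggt
Chgb: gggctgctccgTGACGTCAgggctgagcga
Scg2: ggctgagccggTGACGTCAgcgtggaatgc

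Chga and Ptprn2 had the most similar profiles of any pair of members and both fell with azoramide. Their windows are shown whole for comparison, Chga at chr12:102554691-102554940 and Ptprn2 at chr12:116485470-116485719, both on the plus strand, with GC contents of 62.4% and 63.6%. The only capitals are those of the Chga half-site.
Chga: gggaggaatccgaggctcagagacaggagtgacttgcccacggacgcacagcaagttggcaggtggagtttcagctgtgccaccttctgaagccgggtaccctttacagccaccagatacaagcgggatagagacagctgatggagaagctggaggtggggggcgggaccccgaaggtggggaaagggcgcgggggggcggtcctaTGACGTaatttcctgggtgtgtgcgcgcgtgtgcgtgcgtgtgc
Ptprn2: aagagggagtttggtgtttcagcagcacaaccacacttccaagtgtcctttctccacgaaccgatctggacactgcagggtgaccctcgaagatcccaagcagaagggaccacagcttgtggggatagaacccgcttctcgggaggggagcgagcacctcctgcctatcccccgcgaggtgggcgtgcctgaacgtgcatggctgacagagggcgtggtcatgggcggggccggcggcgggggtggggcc

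Per kilobase of exon, the granins were among the most abundant messages of the islet. Averaged over the 11 libraries, Scg2 stood at 3379 CPM per kilobase, Chga at 2651, Chgb at 1398 and Scg3 at 827, ranks 15, 17, 23 and 29 of the tested genes. The membrane proteins were lower, with Ptprn at 203, Slc30a8 at 112 and Ptprn2 at 45.8 CPM per kilobase, and Vgf, the least abundant granin, stood at 72.5. The order of the first 2 granins depended on the treatment. In azoramide libraries Scg2 lay above Chga, at 3600 ± 51 against 1988 ± 246 CPM per kilobase in those labelled βZKO_Mip and at 4077 ± 261 against 2311 ± 48 in controls (SD, n = 3 each). In DMSO libraries Chga came first, at 3277 ± 107 CPM per kilobase (SD, n = 2) against 2727 ± 164 for Scg2 in those labelled βZKO_Mip. In control DMSO libraries Chga had 3238 ± 200 and Scg2 2895 ± 410 CPM per kilobase (SD, n = 3), and these ranges overlapped between libraries. Within each of these libraries Chga was the higher, at 3337 against 3036, 3008 against 2434 and 3369 against 3216 CPM per kilobase. Below these 2 genes the order was the same in every group: Chgb, Scg3, Ptprn, Slc30a8, Vgf, Ptprn2.

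**Figure D1:**
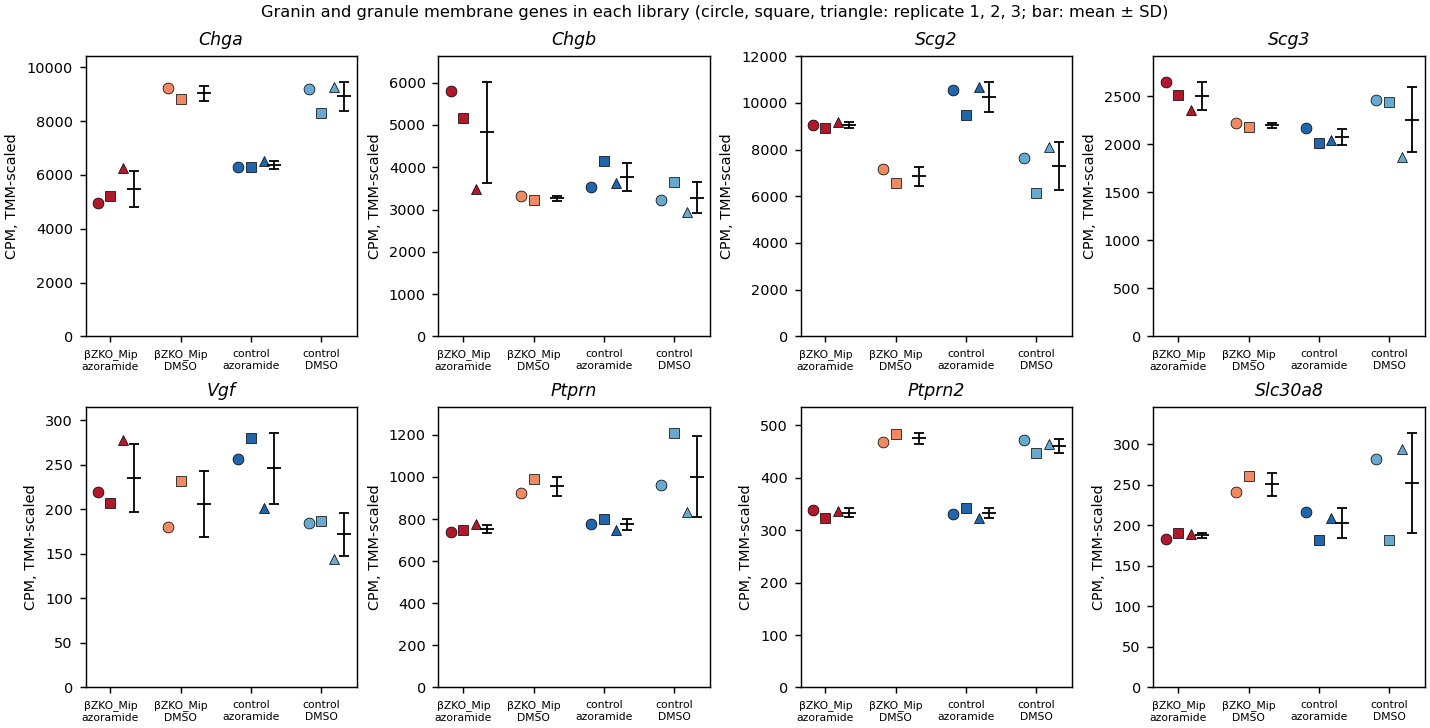
TMM-scaled CPM of the 8 genes in each of the 11 libraries, by group, with the group mean and SD; symbols mark the replicate number. Chga and Ptprn2 lie lower in every azoramide library than in any DMSO library of the same label, Scg2 lies higher, and Chgb in βZKO_Mip azoramide library 3 (3486 CPM) lies below the other 2 of its group.

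With azoramide, Chga, Ptprn and Ptprn2 fell and Scg2 rose both in libraries labelled βZKO_Mip and in controls, and Vgf rose in controls. Scg3 did not pass the test in either, nor did Chgb, at a log2 change of 0.56 in libraries labelled βZKO_Mip, or Slc30a8. Of the 8 members, 1 rose and 3 fell in libraries labelled βZKO_Mip, against a background of 39.8% of all tested genes called, 20.0% higher and 19.8% lower. In control libraries 2 rose and 3 fell, against 39.0% of all tested genes, 19.3% higher and 19.8% lower. The median log2 change of the members was -0.08 in libraries labelled βZKO_Mip and -0.22 in controls, where all tested genes had -0.003 and -0.02. These medians of 8 genes moved with single libraries: the first was -0.19 without DMSO library 1 and -0.16 without azoramide library 3 of its label, and the second was -0.14 without control DMSO library 2 or 1. Only 8 genes stand behind these counts of calls and the set as a whole was not tested, so they are no result about the members as a set. Azoramide and DMSO values did not overlap for 3 members higher and 4 lower in libraries labelled βZKO_Mip, beside 30.2% and 31.4% of all tested genes (61.6% in either direction). In controls they were apart for 2 higher and 3 lower, beside 23.8% and 24.6% (48.4% in either direction). A call here means an adjusted p under 0.05 in edgeR's quasi-likelihood test with Benjamini-Hochberg adjustment over the tested genes.

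Chga encodes chromogranin A, the founding member of the family and the precursor of pancreastatin. It had 4961, 5228 and 6246 CPM in azoramide libraries labelled βZKO_Mip, against 9241 and 8823 CPM in the DMSO libraries of that label. Control libraries had 6281, 6305 and 6522 CPM with azoramide, against 9195, 8289 and 9285 CPM with DMSO. No azoramide library reached the lowest DMSO library, in either label. The log2 change was -0.72 in libraries labelled βZKO_Mip (SE 0.08, edgeR adjusted p = 3.8e-06) and -0.49 in controls (SE 0.07, edgeR adjusted p = 6.3e-05).

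Scg2 encodes secretogranin II, the precursor of secretoneurin, and moved the other way. It had 9039, 8934 and 9188 CPM in azoramide libraries labelled βZKO_Mip, against 7150 and 6567 CPM with DMSO. In controls it had 10569, 9499 and 10695 CPM with azoramide, against 7637, 6120 and 8089 CPM with DMSO. Every azoramide library lay above every DMSO library. Scg2 rose by 0.40 (SE 0.09, edgeR adjusted p = 0.0032) in libraries labelled βZKO_Mip and by 0.49 (SE 0.08, edgeR adjusted p = 2.6e-04) in controls on the log2 scale. In libraries labelled βZKO_Mip the call ended with scaling by plain library totals (log2 change 0.24, edgeR adjusted p = 0.062), with a correction for exon length and GC content (0.17, edgeR adjusted p = 0.26) and without DMSO library 2 (0.34, edgeR adjusted p = 0.060).

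The opposite changes of Chga and Scg2 can be read within each library, where the scaling between libraries cancels. A dependence of counts on GC content would not cancel there, and exonic GC is 57.2% for Chga and 46.8% for Scg2. Over the 19 other settings the log2 change in libraries labelled βZKO_Mip reached -0.57 for Chga and 0.17 for Scg2 at its nearest to 0. In controls these values were -0.40 and 0.27. There were 1.82, 1.71 and 1.47 Scg2 counts per Chga count in azoramide libraries labelled βZKO_Mip, against 0.77 and 0.74 with DMSO. Control libraries had 1.68, 1.51 and 1.64 with azoramide, against 0.83, 0.74 and 0.87 with DMSO. All 6 azoramide libraries thus held more Scg2 than Chga counts and all 5 DMSO libraries held fewer. Of the counts of the 5 granin genes, Chga took 24.9% ± 3.7 in azoramide libraries labelled βZKO_Mip (SD, n = 3) and 41.9% ± 0.1 with DMSO (SD, n = 2), and in controls 28.0% ± 0.4 with azoramide and 40.7% ± 0.8 with DMSO (SD, n = 3 each). Scg2 took 41.0% ± 1.5 with azoramide and 31.8% ± 0.8 with DMSO in libraries labelled βZKO_Mip, and 45.1% ± 2.1 with azoramide and 33.2% ± 3.4 with DMSO in controls (SD, same n). After TMM scaling the summed level of the 8 members overlapped between treatments. With azoramide against DMSO it was 22850 to 23939 against 22753 to 23729 CPM in libraries labelled βZKO_Mip. In controls it was 23582 to 24360 against 22537 to 24412 CPM. As a share of raw counts the 8 were lower in every azoramide library than in any DMSO library of the same label. These shares were 2.17% to 2.33% against 2.44% to 2.56% in libraries labelled βZKO_Mip, and 2.22% to 2.28% against 2.33% to 2.57% in controls.

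**Figure D2:**
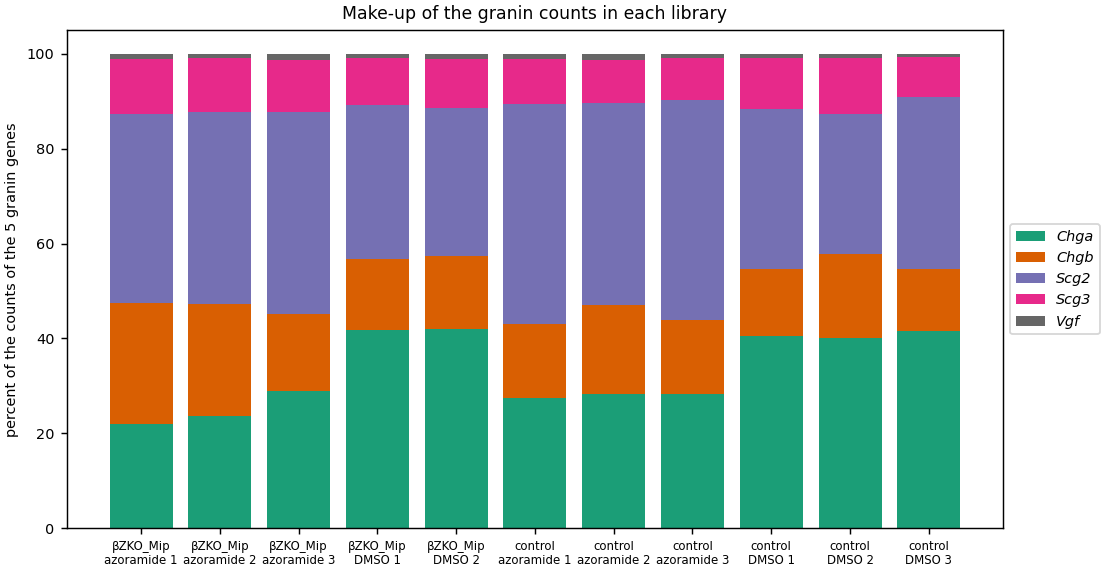
Share of the counts of the 5 granin genes that each gene took, in percent, with 1 bar for each of the 11 libraries. Chga takes between 21.9% and 29.0% in azoramide libraries and over 40% in every DMSO library, and Scg2 takes the larger share in azoramide libraries.

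Chgb encodes chromogranin B, which like chromogranin A is abundant in the granule core. It had 5812, 5175 and 3486 CPM in azoramide libraries labelled βZKO_Mip, against 3310 and 3221 CPM with DMSO. Control libraries had 3526, 4156 and 3622 CPM with azoramide, against 3223, 3662 and 2935 CPM with DMSO. Libraries 1 and 2 labelled βZKO_Mip with azoramide were the highest of the 11, library 3 of that group was near the controls, and the control groups overlapped. The log2 change was 0.56 (SE 0.20, edgeR adjusted p = 0.058) in libraries labelled βZKO_Mip and 0.20 (SE 0.18, edgeR adjusted p = 0.42) in controls, where it was 0.13 without azoramide library 2 or DMSO library 3. Library 3 decided the first of these: without it the change was 0.75 with an edgeR adjusted p of 5.25e-05. DESeq2's Wald test on all libraries also called it (0.57, adjusted p = 0.0151). The control value was 0.04 to 0.29 in the 19 other settings. It was called as a rise in 2 of them, and the value in libraries labelled βZKO_Mip in 4.

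Scg3 encodes secretogranin III, which binds both chromogranin A and cholesterol of the granule membrane. It had 2648, 2509 and 2351 CPM in azoramide libraries labelled βZKO_Mip, against 2215 and 2179 CPM with DMSO. In control libraries there were 2169, 2017 and 2038 CPM with azoramide, against 2457, 2440 and 1869 CPM with DMSO. The groups labelled βZKO_Mip did not overlap, and the control groups did. The log2 changes were 0.19 (SE 0.10, edgeR adjusted p = 0.14) in libraries labelled βZKO_Mip, which turned to -0.09 with the length and GC correction, and -0.12 (SE 0.09, edgeR adjusted p = 0.30) in controls. In controls the value was -0.24 (edgeR adjusted p = 0.0031) without DMSO library 3, the lowest of its group, and -0.37 (edgeR adjusted p = 0.0022) with the length and GC correction, but -0.05 without DMSO library 1 and -0.06 without DMSO library 2. Each label had a call in 3 of the 19 settings, for a rise in libraries labelled βZKO_Mip (lowest adjusted p = 0.014) and a fall in controls.

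Vgf encodes a neuroendocrine granin whose peptides include TLQP peptides that act on metabolism. It had 219, 207 and 278 CPM in azoramide libraries labelled βZKO_Mip, against 180 and 232 CPM with DMSO. The control values were 257, 280 and 202 CPM with azoramide, against 184, 187 and 144 CPM with DMSO. The groups overlapped in libraries labelled βZKO_Mip and were apart in controls. Vgf rose by 0.52 in controls on the log2 scale (SE 0.18, edgeR adjusted p = 0.0497), and the value in libraries labelled βZKO_Mip was 0.19 (SE 0.20, edgeR adjusted p = 0.50). That last value rested on single libraries of its label, at 0.02 without DMSO library 1, 0.05 without azoramide library 3 and 0.38 without DMSO library 2. The control call stood at the threshold: it held in 9 of 19 alternative settings, among which the change was between 0.35 and 0.83. It ended with plain library totals (0.35, edgeR adjusted p = 0.137) and without any single control library other than azoramide library 3, at edgeR adjusted p between 0.077 and 0.15. It ended too without azoramide library 1 (edgeR adjusted p = 0.064) or 2 (0.051) labelled βZKO_Mip, and with no filter on low counts (0.090).

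Ptprn and Ptprn2 encode IA-2 and its homologue phogrin (IA-2β), single-pass proteins of the granule membrane with an inactive phosphatase domain. Ptprn had 737, 750 and 776 CPM in azoramide libraries labelled βZKO_Mip, against 925 and 988 CPM with DMSO. In controls it had 775, 800 and 747 CPM with azoramide, against 962, 1210 and 833 CPM with DMSO. All azoramide libraries were lower than all DMSO libraries, and control DMSO library 2 was the highest of the 11. Its log2 change was -0.34 under the label βZKO_Mip (SE 0.11, edgeR adjusted p = 0.031) and -0.37 in controls (SE 0.10, edgeR adjusted p = 0.013). With the length and GC correction these became -0.005 (edgeR adjusted p = 0.98) and -0.10 (edgeR adjusted p = 0.52). The control value was -0.21 (edgeR adjusted p = 0.0095) without DMSO library 2. Leaving out any 1 library labelled βZKO_Mip ended the call in that label, at edgeR adjusted p between 0.062 and 0.17. So did using no filter on low counts (edgeR adjusted p = 0.084).

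Ptprn2 had the smallest standard errors of the 8. It had 339, 323 and 336 CPM in azoramide libraries labelled βZKO_Mip, against 468 and 483 CPM with DMSO. The control values were 332, 343 and 324 CPM with azoramide, against 472, 447 and 464 CPM with DMSO. It fell, with log2 changes of -0.51 (SE 0.06, edgeR adjusted p = 3.8e-06) under the label βZKO_Mip and -0.47 in controls (SE 0.05, edgeR adjusted p = 3.0e-06). It was called in all 19 alternative settings in both, as Chga was, but the length and GC correction reduced its change to -0.27 and -0.24.

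Slc30a8 encodes ZnT8. It had 184, 190 and 189 CPM in azoramide libraries labelled βZKO_Mip, against 241 and 261 CPM with DMSO. In controls it had 217, 182 and 209 CPM with azoramide, against 282, 181 and 294 CPM with DMSO. Control DMSO library 2 lay with the azoramide libraries, and the other 4 DMSO libraries lay above all azoramide libraries. The log2 change was -0.42 (SE 0.18, edgeR adjusted p = 0.10) in libraries labelled βZKO_Mip and -0.32 (SE 0.16, edgeR adjusted p = 0.16) in controls. Without control DMSO library 2 it was -0.42 (edgeR adjusted p = 4.88e-05) and -0.51 (edgeR adjusted p = 5.96e-06), while without control DMSO library 3 the control value was -0.19 (edgeR adjusted p = 0.44). The value in libraries labelled βZKO_Mip kept its size without control DMSO library 2, since that library enters the shared fit of the spread but not the comparison itself. Among the 19 other settings Slc30a8 was called in 7 in libraries labelled βZKO_Mip and in 6 in controls. Its change there was -0.80 to -0.36 and -0.67 to -0.19. The length and GC correction was among the settings with a call in both labels.

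**Figure D3:**
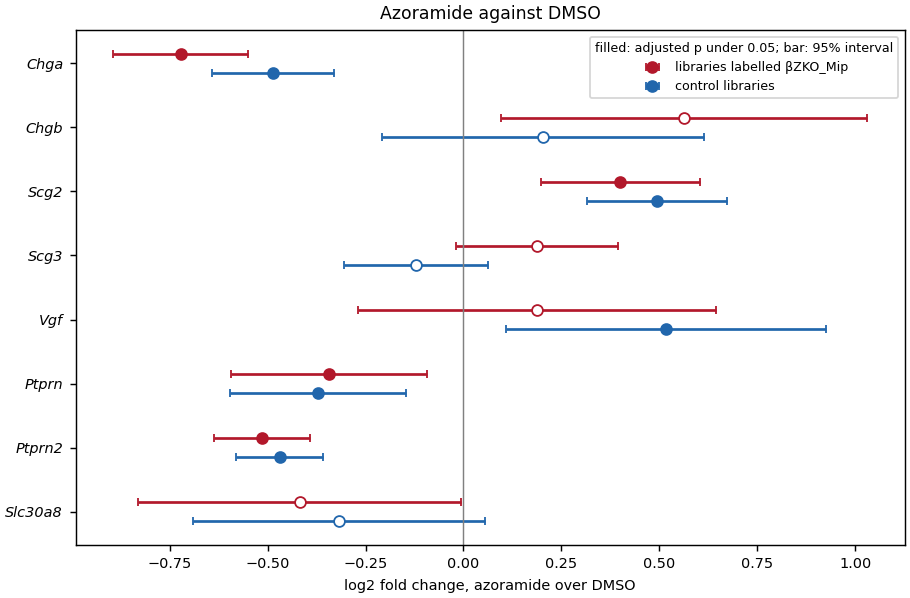
log2 fold change of azoramide over DMSO for the 8 genes, in libraries labelled βZKO_Mip (red, n = 3 and 2) and control libraries (blue, n = 3 and 3), with 95% intervals; filled points have an edgeR adjusted p under 0.05. Chga, Ptprn and Ptprn2 are below 0 and Scg2 is above 0 in both, and the intervals of Chgb, Vgf and Slc30a8 are the widest.

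The transcripts of other islet cells shifted with azoramide too, and in bulk RNA fewer cells of a type and less RNA per cell cannot be told apart. The summed level of 6 α cell markers was 23554 to 25297 CPM with azoramide against 14416 to 16419 with DMSO in libraries labelled βZKO_Mip, and 24281 to 27670 against 14317 to 15846 in controls. Of these 6 genes, 5 rose in libraries labelled βZKO_Mip and 4 in controls, and none fell. Among all tested genes 20.0% and 19.3% rose, and 19.8% fell in each. The sum of 8 β cell markers was 107533 to 142264 CPM with azoramide against 110765 to 113074 with DMSO in libraries labelled βZKO_Mip, and 120702 to 156009 against 118685 to 122356 in controls. Ins1 and Ins2 made up most of this sum, at means of 32765 and 84857 CPM in control DMSO libraries. The median log2 change of the 8 β cell markers was -0.50 in libraries labelled βZKO_Mip and -0.42 in controls. Of the β cell markers 2 rose and 4 fell in libraries labelled βZKO_Mip, and 3 rose and 4 fell in controls. Sums of some other lists were apart as well, where 61.6% of single tested genes were apart in libraries labelled βZKO_Mip and 48.4% in controls. For 2 PP cell markers they were 3262 to 3891 CPM with azoramide against 2322 to 2408 with DMSO in libraries labelled βZKO_Mip, and 3614 to 4086 against 2041 to 2816 in controls. For 6 ductal markers they were 1597 to 1872 against 1350 to 1363, and 1489 to 1865 against 1149 to 1418. The 6 macrophage markers summed to 56.8 to 97.1 against 42.2 to 43.3, and 53.6 to 68.8 against 39.3 to 50.6. Of these 6 genes only 1, Cd68, rose in each label, and Adgre1 and Csf1r had values below 0 in controls, neither called. Of the 5 tested ductal markers 1 rose in libraries labelled βZKO_Mip and 2 in controls. Lower with azoramide were 6 endothelial markers, at 222 to 256 CPM against 301 to 313 in libraries labelled βZKO_Mip and 213 to 274 against 303 to 311 in controls, and 6 stellate and fibroblast markers, at 11.4 to 19.5 against 21.2 to 25.1 and 12.4 to 17.1 against 18.4 to 20.4. Of the endothelial markers 3 fell in each label. Of the 5 tested stellate and fibroblast markers 1 fell in libraries labelled βZKO_Mip and 2 in controls. The δ cell, acinar, and Schwann and neuron sums overlapped between treatments in at least 1 label. Apart from Acta2, a stellate cell marker listed at 0 in some libraries, every marker was above 0 in every library, and the part of these shifts in the granin results was not tested. The changes also ran with exon length: in 5 equal bins of tested genes by exon length, the bin of shortest genes had a median log2 change of 0.29 in libraries labelled βZKO_Mip and 0.28 in controls, and the bin of longest genes -0.16 and -0.20. Slc30a8 is in bin 1, the shortest, the 5 granins are all in bin 2, Ptprn is in bin 3 and Ptprn2 in bin 5. The correction used here covers length and GC content together, and their parts in it were not separated. Exonic GC is 57.2% for Chga, 53.9% for Chgb, 46.8% for Scg2, 45.1% for Scg3 and 63.6% for Vgf. It is 58.1% for Ptprn, 49.9% for Ptprn2 and 45.3% for Slc30a8.

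**Figure D4:**
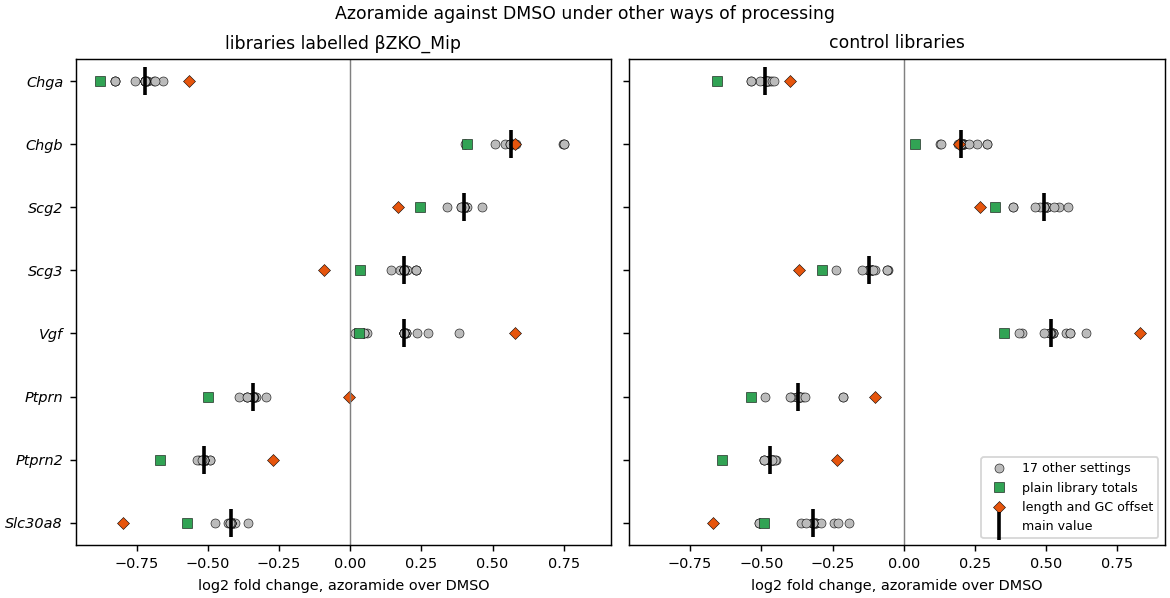
log2 fold change of azoramide over DMSO for each gene as reported (black line) and under 19 other ways of processing, in libraries labelled βZKO_Mip (left) and control libraries (right). Plain library totals (green) move every gene lower, and the length and GC offset (orange) brings Ptprn to -0.005 in libraries labelled βZKO_Mip, while Chga and Ptprn2 stay below 0 throughout.

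Between libraries labelled βZKO_Mip and controls, no member passed the test under either treatment. With azoramide the 3 members with the smallest p were Scg3, higher by 0.27 on the log2 scale (SE 0.09, unadjusted p = 0.0070), Chga, at -0.22 (SE 0.07, unadjusted p = 0.0091), and Scg2, at -0.18 (SE 0.08, unadjusted p = 0.049), all by edgeR's quasi-likelihood test. After adjustment over all tested genes these had edgeR p of 0.96, 0.96 and 0.97. edgeR called 0 of 15093 genes (background 0%), with 754 genes and 3 members at an unadjusted p under 0.05, and DESeq2 called 2 genes, neither a member. The values of Scg3 were apart and higher, and those of Chga and Scg2 apart and lower, in libraries labelled βZKO_Mip, beside 5.56% of all tested genes higher and 5.58% lower (11.1% in either direction). The value of Chgb, 0.36, was 0.20 without βZKO_Mip azoramide library 1 and 0.54 without library 3. For the members other than these 3 the 95% intervals were -0.06 to 0.77 for Chgb, -0.48 to 0.34 for Vgf, -0.26 to 0.19 for Ptprn, -0.11 to 0.11 for Ptprn2 and -0.48 to 0.26 for Slc30a8. When βZKO_Mip azoramide library 3 and control DMSO library 2 were both left out, 84 of 14962 tested genes were called. Chga (-0.32, edgeR adjusted p = 0.0018) and Chgb (0.54, edgeR adjusted p = 0.0013) were among them. The libraries left out were picked by their place in these same data, and library 3 had the lowest Chgb of its group. These calls are therefore no independent evidence of a difference between labels.

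With DMSO the log2 differences of the 8 between labels lay between -0.09 for Scg2 and 0.26 for Vgf, and values of all 8 overlapped, where 19.4% of all tested genes did not overlap (9.86% higher and 9.57% lower). edgeR's adjusted p was 0.999 for each, no member was under an unadjusted p of 0.05, and 0 of 15093 genes were called (background 0%), with 531 at an unadjusted p under 0.05. DESeq2 called 3 genes and no member. The narrowest 95% interval was that of Ptprn2, -0.08 to 0.17, and that of Vgf, -0.19 to 0.71, was among the widest.

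**Figure D5:**
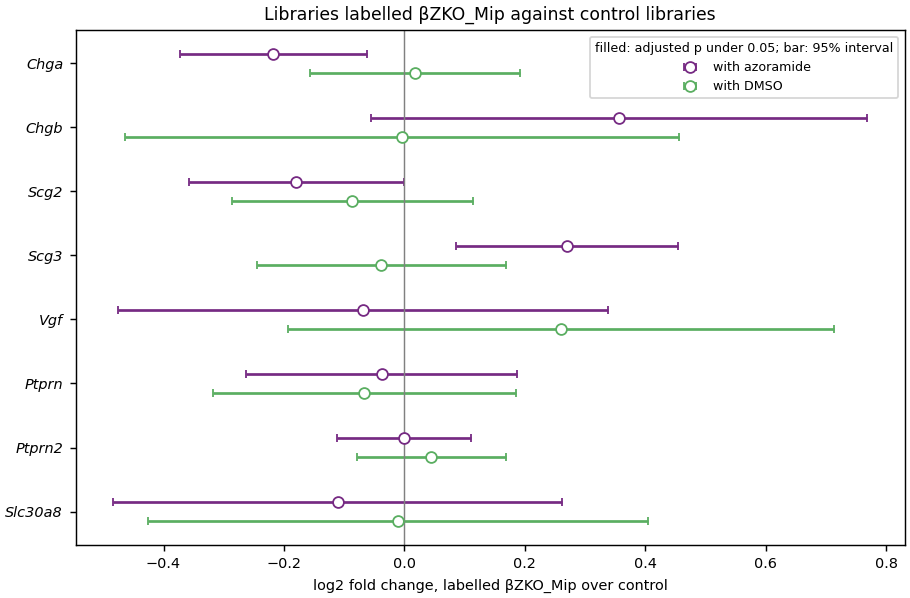
log2 fold change of libraries labelled βZKO_Mip over control libraries for the 8 genes, with azoramide (purple, n = 3 and 3) and with DMSO (green, n = 2 and 3), with 95% intervals. No point is filled, since none has an edgeR adjusted p under 0.05, and with azoramide the interval of Scg3 lies above 0 and those of Chga and Scg2 below.

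Whether azoramide acted differently by label was tested as an interaction. It was 0.31 on the log2 scale for Scg3 (SE 0.13, unadjusted p = 0.031) and -0.23 for Chga (SE 0.11, unadjusted p = 0.049), and both had an edgeR adjusted p of 0.999. The other members had 0.36 for Chgb, -0.33 for Vgf, -0.10 for Slc30a8, -0.09 for Scg2, -0.04 for Ptprn2 and 0.03 for Ptprn, with unadjusted p of 0.22 or more. Leaving out 1 library put the Vgf value between -0.50 and -0.13 and that of Chgb between 0.20 and 0.55. edgeR called 0 of 15093 genes (background 0%), with 563 at an unadjusted p under 0.05, and DESeq2 called 0. The call of Vgf in controls and its absence in libraries labelled βZKO_Mip are therefore not shown to differ.

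Counts in other granule gene lists are to be read beside the shares of all tested genes above, near 20.0% in each direction. Of 12 genes of granule cargo and its processing, 5 rose and 3 fell with azoramide both in libraries labelled βZKO_Mip and in controls, with median log2 changes of 0.30 and 0.26, and 4 did not pass. Iapp, which encodes amylin, rose to 32832 ± 638 CPM with azoramide in libraries labelled βZKO_Mip (SD, n = 3), against 19570 ± 610 with DMSO (SD, n = 2), and to 34877 ± 3112 in controls, against 20477 ± 458 (SD, n = 3 each). Its log2 change was 0.75 and 0.77. Nucb2, the precursor of nesfatin, changed by 0.52 and 0.58, and Scg5, the chaperone 7B2 of prohormone convertase 2, by 0.34 and 0.45. Ins1 fell by 0.50 and by 0.46, with 22026 ± 3151 against 31230 ± 455 CPM in libraries labelled βZKO_Mip and 23871 ± 1750 against 32765 ± 1499 in controls. Ins2 rose in controls (0.42, edgeR adjusted p = 0.024) and had 0.26 (edgeR adjusted p = 0.19) in libraries labelled βZKO_Mip.

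Of 25 genes of granule formation and traffic, 7 rose and 6 fell in libraries labelled βZKO_Mip and 7 rose and 4 fell in controls, with medians of 0.04 and 0.03, and 12 and 14 did not pass. Rab3b, a small GTPase of exocytosis, rose by 0.65 and 0.64, and Ica1, which encodes the autoantigen ICA69, by 0.54 and 0.45. Arfip1, an arfaptin of the Golgi, rose by 0.42 and 0.36, and Cadps, the priming factor CAPS1, fell by 0.60 and by 0.41. Of the 9 other SLC30 zinc transporters listed, 6 were tested, and 3 rose in libraries labelled βZKO_Mip and 1 in controls, with none falling. Slc30a4 rose by 0.43 and 0.37. Slc30a6 rose by 0.36 (edgeR adjusted p = 0.035) and Slc30a7 by 0.24 (edgeR adjusted p = 0.011) in libraries labelled βZKO_Mip, against 0.21 (edgeR adjusted p = 0.17) and 0.11 (edgeR adjusted p = 0.19) in controls. Slc30a9 had 0.19 (edgeR adjusted p = 0.072) and 0.05 (edgeR adjusted p = 0.66).

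Likeness of profiles over the 11 libraries was measured as the Euclidean distance between log2 CPM profiles centred on each gene's mean, as a description that shares the treatment difference. The closest members were Chga and Ptprn2 at 0.44 and Ptprn and Ptprn2 at 0.50, and the farthest were Chga and Chgb at 1.96, although both are chromogranins. Among 9878 genes with a mean log2 CPM of at least 3, Ptprn2 was nearest to Glg1 at 0.11 and Syt13, of the synaptotagmin family, at 0.14. Osbp was among the 2 nearest to Ptprn, at 0.20. Chga was nearest to Pcx, pyruvate carboxylase, at 0.19 and Arid1b at 0.20, and Ppp2r3c was among the 2 nearest to Scg2, at 0.21. Chgb was nearest to Irx2, listed here with the α cell markers, at 0.32 and Enpep at 0.33. Scg3 was nearest to Sgms2 at 0.20 and Cep170 at 0.24, Slc30a8 to Fam234b and Enpp2, both at 0.30, and Vgf to Ttc27 at 0.39 and Cdc42se2 at 0.50.

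On build GRCm38 the GENCODE M21 annotation places Chga at chromosome 12, 102554969 to 102565028, and Ptprn2 on the same chromosome at 116485720 to 117276849. Scg2 lies at chromosome 1, 79434669 to 79440120, and Ptprn at chromosome 1, 75247027 to 75264502. Chgb lies at chromosome 2, 132781278 to 132795079, and Scg3 at chromosome 9, 75643189 to 75684056. Vgf lies at chromosome 5, 137026392 to 137033351, and Slc30a8 at chromosome 15, 52295553 to 52335798. Whether counting used the strand is not given in the sources used here. Gm28294, antisense to Ptprn, had at most 7 counts in a library, and Gm10421 and Gm5441, which overlap Ptprn2 on the other strand, had at most 1, against at least 13201 for Ptprn and 5647 for Ptprn2.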

How the data were processed

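The values are raw read counts per gene, deposited by the authors as 1 table of 32285 genes and 11 libraries, with 0 columns unused. Per the submitters' processing notes, STAR 2.7.2a, build mm10 and DESeq2 were named. For the counting tool, its annotation and its use of strand, nothing is given in the sources used here. Per the labels' protocols the extracted material was total RNA, sequenced on a DNBSEQ-T7.

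Counts were fitted with edgeR 4.0.16 in R 4.3.3 (TMM scaling, filterByExpr by group, robust quasi-likelihood test, 1 fit over 4 groups), and p-values were adjusted by Benjamini-Hochberg over the 15093 tested genes, with a threshold of 0.05. CPM are TMM-scaled. The method was checked on simulated counts. Alternatives were DESeq2 1.42.0, other scalings and filters, only the groups compared, a replicate block, an offset for exon length and GC content (mgcv 1.9.3) and libraries left out. Exon length and GC come from GENCODE M21, which annotated 32235 of the gene IDs. Exon length is the length of all annotated exonic bases of a gene, and the count of a library limits precision only by counting error, which is small at these depths.

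All 8 members are named. From each of 3 other granule gene lists the 4 tested genes with the smallest p for azoramide in control libraries are named, plus Ins1, Ins2 and Zzef1, and for each member the 2 nearest profiles, some of which are not reported here. The members and lists were chosen with earlier results of these data known.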

Additional observations from a re-analysis of the deposited data

How the results depend on the processing

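In libraries labelled βZKO_Mip the number of members called for azoramide against DMSO was 7 with a replicate block, against 4, and 2 to 5 with 1 library left out. In controls it was 7 with the block, against 5, and 4 to 5 with 1 library left out, and the genotype comparisons and the interaction had 0 to 0. Without both libraries that stand apart, which were picked in these same data, 2 members and 84 of 14962 genes were called between labels with azoramide. With the block 6162 and 6004 of the 15093 genes were called, against 6006 and 5893. Deviations of same-numbered libraries from their group means had r between -0.14 and 0.11 over 5 pairs. With 2 or 3 libraries in a group, such values cannot show whether the libraries were pairs. The count columns of same-numbered libraries of a label share a stem in their names. The labels state no pairs, and the reported fit uses none. Plain library totals moved the median log2 change of all genes by -0.16 in libraries labelled βZKO_Mip and by -0.17 in controls, and the calls that rose were then 29.1% and 24.8%, against 50.2% and 49.3%. Members were then 0 higher and 4 lower, and 1 higher and 5 lower. With the length and GC offset 3661 and 3439 genes were called, against 6006 and 5893, of which 57.0% and 60.7% rose. Members were then 0 higher and 3 lower, and 2 higher and 4 lower. The cause was not tested.

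Of 760 member values under other settings 36 changed sign, 18 of them with 1 library left out, and in 0 of them had the reported value been called. For azoramide against DMSO in libraries labelled βZKO_Mip, Scg3 became -0.092 with the offset. Between labels with azoramide, plain totals gave 0.0037 for Ptprn and 0.041 for Ptprn2, and fitting only the groups compared gave 0.0015 for Ptprn2. Between labels with DMSO, plain totals gave 0.028 for Chgb and 0.016 for Slc30a8, the offset gave -0.022 for Chga, 0.00074 for Scg3 and 0.045 for Slc30a8, and the replicate block gave 0.063 for Slc30a8. Without both libraries that stand apart, the DMSO values were -0.033 for Chga, 0.085 for Chgb, 0.022 for Scg3 and 0.092 for Ptprn. The interaction was then 0.0068 for Scg2, -0.15 for Ptprn and 0.085 for Slc30a8, and with the block -0.0074 for Ptprn. With 1 library left out, the values between labels with azoramide were -0.21 to 0.033 for Vgf and -0.019 to 0.022 for Ptprn2. With DMSO they were -0.033 to 0.050 for Chga, -0.076 to 0.085 for Chgb, -0.16 to 0.028 for Scg3, -0.18 to 0.092 for Ptprn and -0.20 to 0.11 for Slc30a8. The interaction was -0.18 to 0.017 for Scg2, -0.13 to 0.14 for Ptprn and -0.23 to 0.090 for Slc30a8.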
